A study of Mus musculus with 5 samples.

Results

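The 44 genes described here encode the machinery that copies DNA in S phase, and they were followed in the mandibular tissue of mouse embryos that lack Yap and Taz in the neural crest. Members were taken by gene symbol from a list of replication genes, under a rule that holds no measured value, though the list was drawn up with earlier results of these data known. All 44 were found among the 23441 gene rows of the count table. All 44 also passed the filter on low counts, which left 12710 genes for the test. The study sequenced poly(A) RNA from 5 libraries of mandible at embryonic day 10.5. The 3 control libraries were Yapf/f, Tazf/f embryos of the 129SvEv background. The 2 dCKO libraries were Wnt1Cre; Yapf/f, Tazf/f embryos of the C57BL/6J x CBA/J; 129SvEv background, so that all 5 carried the floxed alleles and only dCKO the Cre. Strain background and genotype cannot be told apart in this design. Wnt1Cre acts in the dorsal neural tube and premigratory neural crest, so the epithelium, endothelium, blood and core mesoderm of the arch keep both genes. The labels do not state whether each library is its own embryo or pool, so a p-value here reflects only how far these samples scatter, and that scatter may be technical.

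Before S phase, the origin recognition complex, Cdc6 and Cdt1 load the ring of MCM subunits onto origins, and geminin blocks Cdt1 once S phase has begun. The kinase Cdc7 then fires origins, Cdc45 and the GINS complex turn the ring into a moving helicase, and polymerases alpha, delta and epsilon copy the strands behind it. The sliding clamp PCNA, placed by replication factor C, holds the polymerases on DNA, while ribonucleotide reductase, thymidylate synthase and thymidine kinase supply nucleotides. Many of these genes are transcribed late in G1 by E2F factors when Rb family proteins release them. YAP and TAZ are transcriptional coactivators known for their part in growth, and TEAD and E2F sites lie together at some cell cycle genes. The first arch at this stage is a growing bud of mesenchyme.

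The labels were checked on the targeted genes. Yap1 measured 312, 475 and 512 CPM in control replicates 1, 2 and 3 and 175 and 170 CPM in the dCKO libraries, and Wwtr1, the symbol of Taz, 38.4, 65.1 and 66.2 against 22.7 and 22.8 CPM. CPM here are counts scaled to a common library size with TMM factors, a method that evens out differences in library composition. Library totals ran from 6491137 to 13298973 counts, and single members held from 193 to 8979 counts in a library. Of 11 jaw mesenchyme markers, all were detected in every library, and 3 were lower in dCKO (Dlx6, Dlx5 and Prrx1, at −0.76, −0.44 and −0.42 on the log2 scale) and 1 higher (Alx4, 0.48). Red cell markers summed to 3451 to 4463 CPM in the controls and to 56260 and 80580 CPM in dCKO, and all 18 that were tested were higher in dCKO (median log2 fold change 4.19), while the adult globins Hba-a1, Hba-a2, Hbb-b1 and Hbb-b2 were listed at 0 counts in every library.

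None of the 44 DNA replication genes differed between dCKO and control tissue by edgeR's quasi-likelihood test (adjusted p below 0.05 over all genes), where 6.42% of all tested genes did (5% higher and 1.42% lower). DESeq2 and limma-voom also called 0 members, against 6.55% and 6.86% of all genes. The smallest edgeR adjusted p among the members was 0.1001, that of Rfc3. An unadjusted p below 0.05 was reached by 5 members, Mcm2 on the higher side and Rfc1, Rfc3, Rpa1 and Rrm2 on the lower, against 21.5% of all tested genes (11.9% higher and 9.65% lower). The log2 fold changes of the members ran from −0.38 to 0.28, with a median of −0.019 beside −0.00062 for all genes tested. Without control replicate 3, the test called 3 members, Mcm2 as higher and Rfc1 and Rfc3 as lower, while calling 12.7% of all genes. In the authors' deposited table none of the 44 had an adjusted p below 0.05, against 2.88% of its genes, and the smallest was 0.452. The log2 fold changes there had the same sign as here for 37 of the 44, so counts of members above and below 0 differ between both. In bulk tissue, fewer cells of a type and less RNA per cell cannot be told apart, so these values describe the tissue and not single cells.

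**Figure D1:**
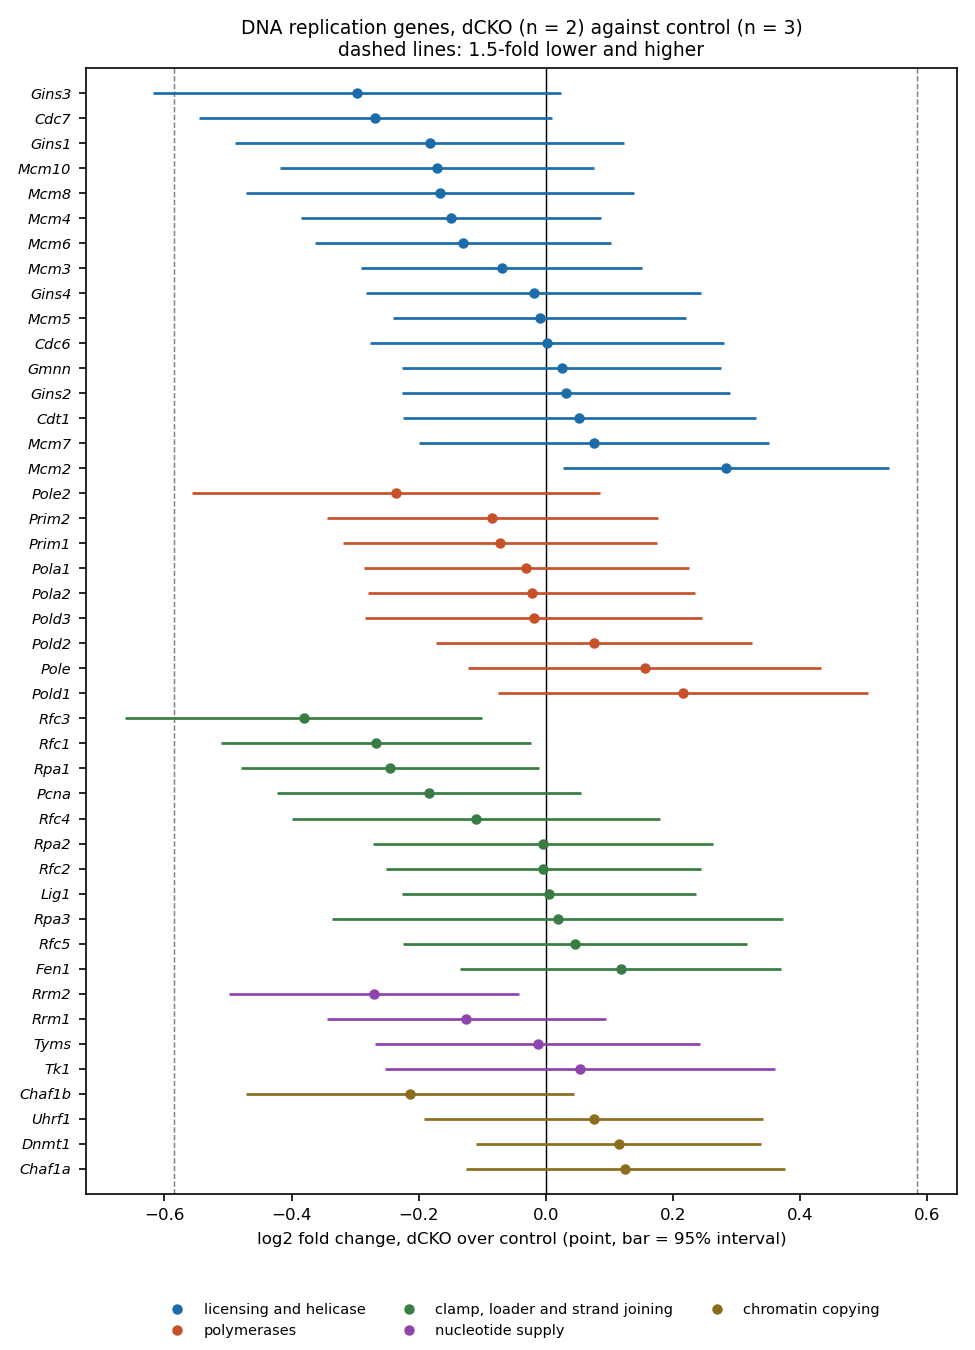
Log2 fold change of each of the 44 DNA replication genes in dCKO (n = 2) over control (n = 3) libraries, with bars for the 95% interval from edgeR, coloured by role group. Points lie between −0.38 and 0.28, and the bars of 42 members stay between the dashed lines at 1.5-fold lower and higher.

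The intervals of these differences were narrow beside those of all tested genes. They rest on the scatter of 3 control and 2 dCKO libraries, which may be technical. All tested genes also include genes of low count, while no member had fewer than 193 counts in a library. The median standard error of the members was 0.12 on the log2 scale, against 0.16 for all tested genes. In 42 of the 44 members the 95% interval of the difference lay within 1.5-fold in both directions, as it did in 51.3% of all tested genes. The exceptions were Gins3 and Rfc3, whose intervals reached −0.62 and −0.66. A difference smaller than 1.5-fold remains possible for any single member. The members together summed to 8940 to 9645 CPM in the controls and to 8763 and 9389 CPM in dCKO, ranges that overlapped. As a share of all counts that was 0.919% to 0.973% in the controls and 0.860% and 0.895% in dCKO, without overlap. All counts include red cell markers, which took 0.348% to 0.457% in the controls and 7.68% and 5.52% in dCKO replicates 1 and 2. Their part in the lower shares was not tested.

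The dCKO libraries did not lie above all controls for any of the 44 members, where 19% of all tested genes had that order. They lay below all controls for 11 members, where 18.6% of all genes did so, and 37.6% of all genes had groups that did not overlap either way. These were Mcm10, Cdc7, Gins3, Pole2, Rfc1, Rfc3, Rpa1, Pcna, Rrm1, Rrm2 and Chaf1b, none of them past the test. The shares over all genes were not matched to the members for the base composition of transcripts, which is taken up below.

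**Figure D2:**
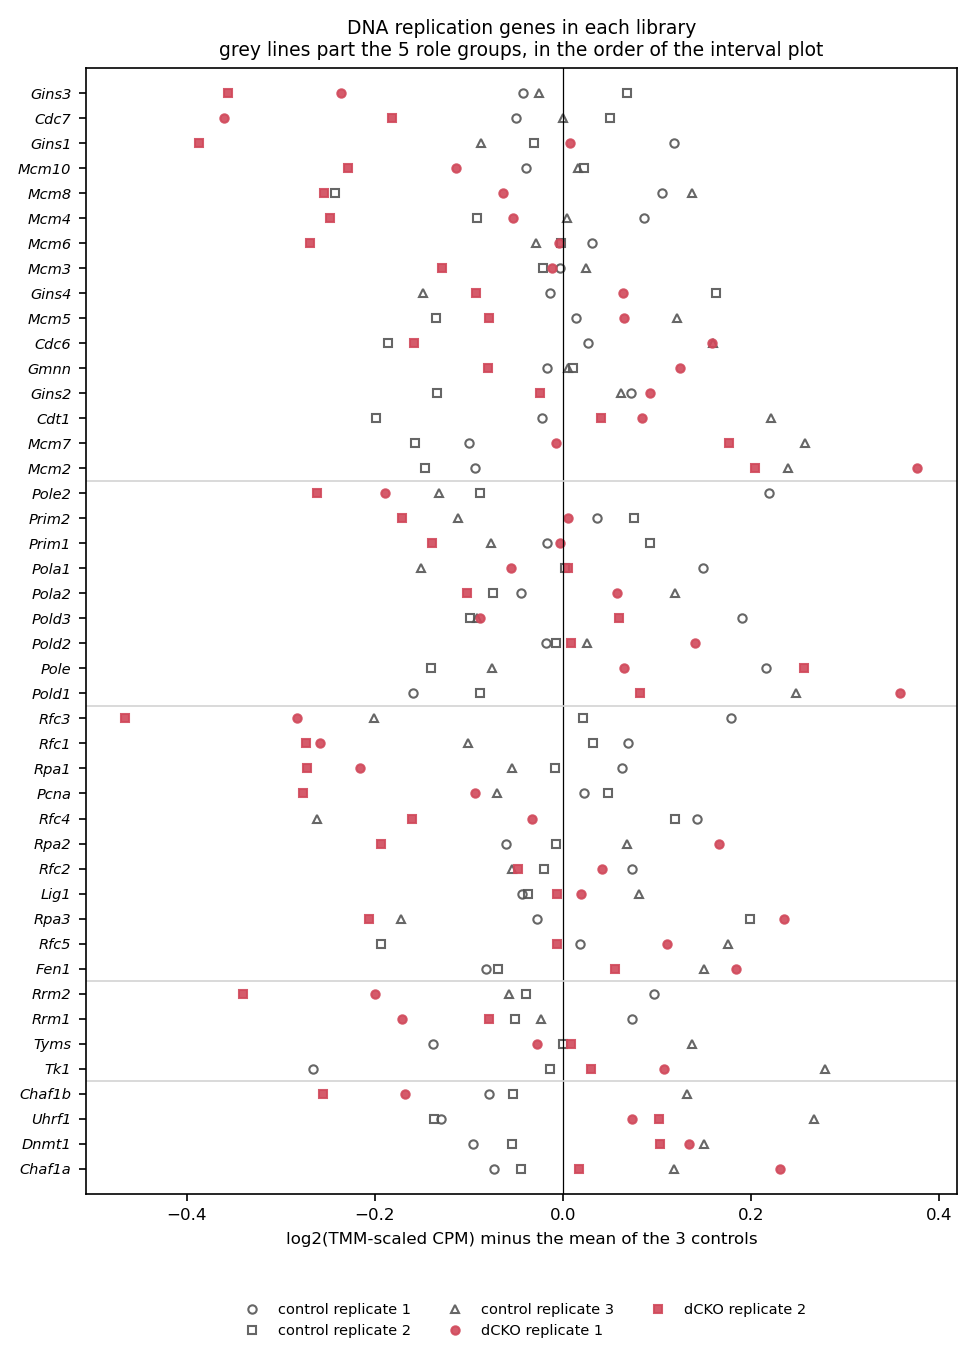
Log2 TMM-scaled CPM of each DNA replication gene in each library, relative to the mean of the 3 controls, with open grey signs for controls and filled red signs for dCKO. The groups overlap in 33 of the 44 members, and dCKO lies below every control in 11.

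Promoter sequences show what most readers would look for first in this family, the letters that E2F factors bind. RefSeq start sites (GRCm38.p6) were matched for 36 members, giving 45 windows from 250 bases before to 50 bases after a start. Windows were not at hand for Mcm4, Gmnn, Gins1, Gins2, Gins4, Prim2, Pole and Rfc2. The E2F motif was searched as TTTCCCGC, TTTCGCGC, TTTGCCGC and TTTGGCGC on both strands, where matches on opposite strands may overlap. It stood in 16 of the 45 member windows (35.6%) and in 2.27% of all 32851 windows of the same length. A CCAAT box (CCAAT, both strands) was in 55.6% of member windows and 37.4% of all windows. The TEAD letters GGAATG, through which YAP and TAZ act, were in 13.3% of member windows and 14.7% of all. The median log2 fold change was −0.014 for the 16 members with an E2F match and −0.047 for the 20 without. A match is a description of letters and not of a bound site.

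The stretches below are those with an E2F match wholly before the start, shown because E2F letters were more frequent in member windows than in all windows, with the match in capitals. They belong to 9 members, and 20 of the 36 matched members had no E2F letters in a window. All are printed 5′ to 3′ on the strand of the gene, and they come from RefSeq windows of GRCm38.p6.
Mcm6: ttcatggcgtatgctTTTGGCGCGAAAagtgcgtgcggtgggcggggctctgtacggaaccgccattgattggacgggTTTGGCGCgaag
Mcm7: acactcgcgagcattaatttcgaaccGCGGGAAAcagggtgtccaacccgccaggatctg
Mcm5: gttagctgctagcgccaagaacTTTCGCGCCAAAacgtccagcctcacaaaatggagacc
Gins3: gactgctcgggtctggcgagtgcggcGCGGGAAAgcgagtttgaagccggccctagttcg
Cdc6: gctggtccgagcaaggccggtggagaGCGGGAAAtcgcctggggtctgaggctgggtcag
Pola1: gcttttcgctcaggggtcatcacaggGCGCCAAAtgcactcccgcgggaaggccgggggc
Rfc3: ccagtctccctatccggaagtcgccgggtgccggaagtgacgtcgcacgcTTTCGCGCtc
Dnmt1: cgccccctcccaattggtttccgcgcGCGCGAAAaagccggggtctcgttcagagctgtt
Uhrf1: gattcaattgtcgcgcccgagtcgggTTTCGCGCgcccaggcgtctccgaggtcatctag
The Mcm6 stretch is chr1:128359741-128359830 on the minus strand and holds 3 matches, a pair that overlaps and 1 nearer the start. Mcm7 is chr5:138172015-138172074 (minus), Mcm5 chr8:75109334-75109393 (plus), Gins3 chr8:95633492-95633551 (plus) and Cdc6 chr11:98907987-98908046 (plus). Pola1 is chrX:93632260-93632319 (minus), Rfc3 chr5:151651209-151651268 (minus), Dnmt1 chr9:20952809-20952868 (minus) and Uhrf1 chr17:56304102-56304161 (plus). In Rfc3, the member with the largest difference, the match begins at position −10 from the start. For comparison, the 60 bases before the start of Rrm2 and Mcm2, which have the smallest p among members without a match, are these.
Rrm2: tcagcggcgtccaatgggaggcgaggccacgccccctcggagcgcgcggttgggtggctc
Mcm2: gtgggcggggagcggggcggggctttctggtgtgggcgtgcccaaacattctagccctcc
They lie at chr12:24708194-24708253 (plus) for Rrm2 and chr6:88898781-88898840 (minus) for Mcm2.

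Among the 16 licensing and helicase genes, which decide where and when origins fire, 6 log2 fold changes were above 0 and 10 below, with a median of −0.044. Over all tested genes 6347 were above 0 and 6363 below. Mcm2, a subunit of the MCM ring, measured 462, 445 and 582 CPM in control replicates 1, 2 and 3 and 640 and 568 CPM in dCKO. Control replicate 3 stood above dCKO replicate 2, so the groups overlapped. The log2 fold change of Mcm2 was 0.28 (SE 0.12, adjusted p = 0.184 by edgeR), the highest of the 44. It was 0.41 without control replicate 3 (edgeR adjusted p = 0.0209). Mcm5, the ring subunit beside Mcm2 at the gate through which DNA enters, measured 613, 553 and 660 CPM in control and 635 and 575 CPM in dCKO, with both dCKO values inside the control range. Its log2 fold change was −0.0093 with a 95% interval of −0.24 to 0.22.

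The other ring subunits, named outside the rule, gave log2 fold changes of −0.069 for Mcm3, −0.15 for Mcm4, −0.13 for Mcm6 and 0.076 for Mcm7. Their levels were also set side by side per kilobase of each gene's longest protein-coding transcript. The annotation behind the counts was not given, so these lengths may differ from the lengths that were counted. The SDs hold only the scatter of libraries, not an error in length or a part of base composition. In control tissue the ring subunits ran from 98.4 ± 15.9 CPM per kb for Mcm7 to 180 ± 15.9 for Mcm5 (SD, n = 3), with Mcm4 and Mcm6 at 115 ± 7.04 and 118 ± 2.45, and Mcm2 and Mcm3 at 147 ± 22.1 and 160 ± 2.56. The order of Mcm4 and Mcm6, and of Mcm2 and Mcm3, lay within the spread of the controls. In dCKO tissue the same scale gave 179 ± 15.1 for Mcm2 and 179 ± 12.6 for Mcm5 at the top, and 104 ± 9.87 for Mcm4 and 104 ± 9.35 for Mcm7 at the bottom (SD, n = 2). Mcm8 and Mcm10, which are not subunits of the ring, stood far lower, at 15.9 ± 2.22 and 35.3 ± 0.829 CPM per kb in the controls (SD, n = 3).

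Cdc7, the kinase that phosphorylates the loaded ring, measured 53.9, 57.8 and 55.8 CPM in control and 43.4 and 49.2 CPM in dCKO. Both dCKO values lay below the controls, and the log2 fold change was −0.27 (SE 0.13, adjusted p = 0.253 by edgeR). Cdt1, the loading factor, measured 129, 114 and 153 CPM in control and 139 and 135 CPM in dCKO. Gmnn, which encodes its inhibitor geminin, measured 76.9, 78.3 and 78.1 CPM in control and 84.8 and 73.6 CPM in dCKO. For this pair the log2 fold changes were 0.053 (95% interval −0.22 to 0.33) and 0.025 (−0.23 to 0.28), and neither group stood apart. Of the GINS subunits, Gins3 had the lowest value at −0.30 (95% interval −0.62 to 0.024), while Gins1, Gins2 and Gins4 stood at −0.18, 0.032 and −0.019.

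Among the 9 polymerase genes, 3 log2 fold changes were above 0 and 6 below, with a median of −0.022 and a range from −0.24 to 0.22. Pold1, the catalytic subunit of the lagging strand polymerase delta, measured 134, 141 and 178 CPM in control and 192 and 158 CPM in dCKO. Here too control replicate 3 was the highest control and stood between both dCKO values. The difference was 0.22 on the log2 scale (SE 0.14, adjusted p = 0.389 by edgeR). Pole2, the second subunit of the leading strand polymerase epsilon, measured 46.4, 37.5 and 36.4 CPM in control and 34.9 and 33.2 CPM in dCKO, all below the controls, with a log2 fold change of −0.24 (SE 0.15, adjusted p = 0.395 by edgeR). Pole, its catalytic subunit, had a log2 fold change of the other sign, 0.16 (95% interval −0.12 to 0.43). Pola2, the accessory subunit of polymerase alpha, measured 138, 135 and 155 CPM in control against 148 and 133 CPM in dCKO. Together with Pola1, Prim1 and Prim2, which complete the complex that lays down primers, it spanned −0.084 to −0.022 on the log2 scale.

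The 11 genes of the clamp, its loader, the single-strand binding protein and strand joining held 3 of the 5 members with an unadjusted edgeR p below 0.05. That is 3 of 11 genes, where 21.5% of all tested genes had such a p. Rfc3, a small subunit of replication factor C, measured 170, 152 and 130 CPM in control and 123 and 109 CPM in dCKO. Both dCKO values lay below the lowest control, and the log2 fold change was −0.38 (SE 0.13, adjusted p = 0.1001 by edgeR). It passed without control replicate 3, at −0.48 (edgeR adjusted p = 0.0176). Rfc1, the large subunit of the same loader, measured 255, 249 and 227 CPM in control and 203 and 201 CPM in dCKO, a log2 fold change of −0.27 (SE 0.12, adjusted p = 0.187 by edgeR). Without control replicate 3 its edgeR adjusted p was 0.0489. The other small subunits did not share this order, with Rfc2, Rfc4 and Rfc5 at −0.0036, −0.11 and 0.046, and the dCKO libraries inside or across the control range in each.

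Pcna, the clamp itself and a common marker of dividing cells, measured 328, 334 and 308 CPM in control and 303 and 267 CPM in dCKO. Both dCKO values were below the lowest control, dCKO replicate 1 by a small margin, and the log2 fold change was −0.18 with a 95% interval of −0.42 to 0.056. Rpa1, the large subunit of the single-strand binding protein, stood at −0.24 (95% interval −0.48 to −0.010, edgeR adjusted p = 0.210), while Rpa2 and Rpa3 stood at −0.0041 and 0.019. Lig1, the ligase that seals Okazaki fragments, measured 312, 314 and 340 CPM in control and 326 and 320 CPM in dCKO, with both dCKO values inside the control range. The flap nuclease gene Fen1, which acts just before Lig1, stood at 0.12 (95% interval −0.14 to 0.37). Summed over the 11 genes, the level was 2078 to 2139 CPM in the controls and 1873 and 2044 CPM in dCKO, a difference of −6.95%.

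None of the 4 nucleotide supply genes passed the test. Rrm2, the small subunit of ribonucleotide reductase whose amount limits the enzyme in S phase, measured 558, 508 and 502 CPM in control and 454 and 412 CPM in dCKO. Both dCKO libraries lay below every control, with a log2 fold change of −0.27 (SE 0.11, adjusted p = 0.155 by edgeR). Rrm1, the large subunit, measured 598, 549 and 560 CPM in control and 505 and 539 CPM in dCKO, also without overlap, at −0.12 (SE 0.10, adjusted p = 0.521 by edgeR). Tyms, which makes thymidylate, and Tk1, which salvages thymidine, stood at −0.013 and 0.054, with dCKO values inside the control range for both. Summed over the 4 genes, the controls held 1216 to 1296 CPM and dCKO 1112 and 1122 CPM, so that the sums did not overlap. Rrm1 and Rrm2 made up most of each sum, so it says little of Tyms and Tk1.

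Of the 4 genes that copy chromatin and its methylation, 3 had log2 fold changes above 0. Dnmt1, the maintenance DNA methyltransferase, measured 599, 616 and 710 CPM in control and 702 and 688 CPM in dCKO. Uhrf1, which brings Dnmt1 to newly copied DNA, measured 331, 329 and 436 CPM in control and 381 and 388 CPM in dCKO. In both genes control replicate 3 was the highest of the 5 libraries, and the log2 fold changes were 0.11 and 0.075. Chaf1b, a subunit of the histone chaperone CAF-1, measured 129, 131 and 149 CPM in control and 121 and 114 CPM in dCKO, a log2 fold change of −0.21 (SE 0.12, adjusted p = 0.329 by edgeR). Chaf1a, its partner, stood at 0.13 (95% interval −0.13 to 0.38).

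Libraries of 1 group differed among themselves in these genes. Control replicate 3 was the highest or the lowest control for 35 of the 44 members (79.5%), beside 75.3% of all tested genes. Of the 2 dCKO libraries, replicate 1 was the higher for 36 of the 44 members (81.8%), where it was the higher for 50.5% of all genes. The median log2 ratio of dCKO replicate 1 over replicate 2 was 0.12 for the members and 0.0042 for all genes. Embryonic globins took 7.43% of the counts of dCKO replicate 1 and 5.30% of dCKO replicate 2, against 0.335% to 0.441% in the controls, and their part in this order was not tested. With red cell markers left out of the scaling, the members' median log2 fold change was −0.019 and 0 were called.

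Part of the spread among the members followed the base composition of their transcripts. Over the 44 members, which share all 5 libraries, the log2 fold change correlated with the GC content of the longest transcript (Pearson r = 0.603, Spearman rho = 0.678), as it did over 12619 tested genes with a GC value (r = 0.289, rho = 0.487). The 13 members in the third of all genes with the lowest GC had a median log2 fold change of −0.17, the same as all genes there (−0.17). For the 12 members in the third with the highest GC the median was 0.076, beside 0.18 for all genes there. Control replicate 3 against the other controls followed GC as well (r = 0.717 over the members and 0.334 over all tested genes with a GC value). After each library's trend with GC over all genes was removed, r was −0.235 over the members and 0.047 over all tested genes with a GC value. The removal is built to take out such a correlation over all genes, so its loss is no separate result. The members then spanned −0.32 to 0.23, and 0 were called, against 5.6% of all genes. Mcm2 then stood at 0.14 (SE 0.094), Rfc3 at −0.32 (SE 0.11), Rrm2 at −0.16 (SE 0.088) and Pold1 at −0.030 (SE 0.11). Chaf1b moved further from 0, from −0.21 to −0.30 (SE 0.099), with the smallest adjusted p of the members, 0.102 by edgeR. Pola1 went from −0.031 to 0.165 and Pold2 from 0.076 to −0.149. The 11 members with dCKO below every control had run from −0.38 to −0.12. With the trend removed they ran from −0.32 (Rfc3) to 0.019 (Rrm1), with Pcna at −0.059.

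**Figure D3:**
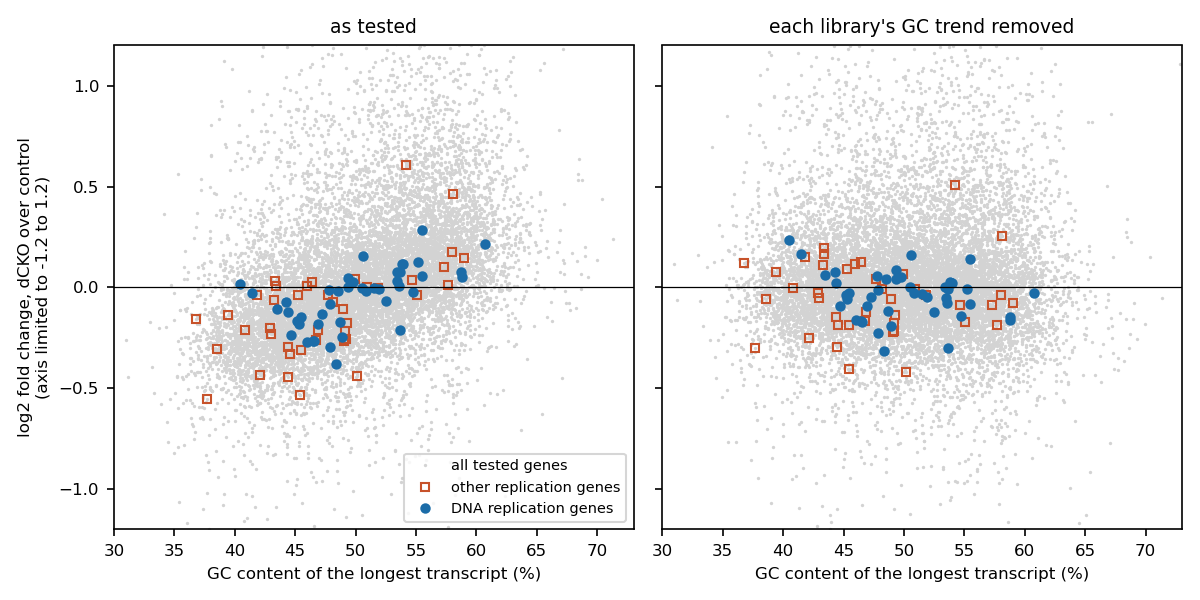
Log2 fold change (dCKO over control) against GC content of the longest transcript for DNA replication genes (blue), other replication genes (orange) and all tested genes (grey), as tested and after removal of each library's GC trend. Over the 44 blue points r is 0.603 as tested and −0.235 after a removal that is built to take out such a slope over all genes.

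Other genes of the replication pathway were read from a list of 41, all tested, that shares no gene with the 44. Of these, 4 were lower and 1 higher in dCKO by edgeR's test, or 12.2%, beside 6.42% of all tested genes, and the median log2 fold change was −0.11. Hells, a chromatin remodeller needed for DNA methylation, fell from 174, 154 and 139 CPM in control to 101 and 111 CPM in dCKO, a log2 fold change of −0.55 (SE 0.13, adjusted p = 0.0118 by edgeR). Dbf4, the activating subunit of the Cdc7 kinase, fell from 187, 162 and 147 CPM to 121 and 123 CPM, a log2 fold change of −0.44 (SE 0.13, adjusted p = 0.0459 by edgeR). In both genes every dCKO value was below every control. Dut, whose enzyme keeps uracil out of DNA, fell from 270, 263 and 246 CPM to 206 and 177 CPM, and Top1, which relaxes DNA ahead of the fork, from 549, 534 and 462 CPM to 365 and 397 CPM, each by 0.44 on the log2 scale (edgeR adjusted p = 0.0336 and 0.0255). Rnaseh2a, the catalytic subunit of the nuclease that removes ribonucleotides from DNA, rose from 30.2, 33.5 and 48.9 CPM to 61.7 and 52.2 CPM, a log2 fold change of 0.60 (SE 0.17, adjusted p = 0.0426 by edgeR).

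Just outside the threshold stood Rnaseh2c at 0.46, Orc6, a subunit of the origin recognition complex, at −0.54, and the histone chaperone gene Nasp at −0.31 (edgeR adjusted p = 0.0526, 0.0547 and 0.0816). The groups overlapped in Orc6, where control replicate 3 lay between both dCKO libraries, and not in Rnaseh2c or Nasp. Calls in this list, as over all genes, moved with single libraries. Without control replicate 1, control replicate 2, dCKO replicate 1 or dCKO replicate 2, the number of calls was 0, 1, 0 and 1, Hells being the call where 1 remained, and without control replicate 3 it was 8. Over all genes the same settings called 3.76%, 4.91%, 3.38%, 3.71% and, without control replicate 3, 12.7%. The call for Dbf4 was also lost under a stricter filter on low counts (edgeR adjusted p = 0.0638), and that for Rnaseh2a with unscaled library totals (0.0654). After the GC trend was removed Dut alone passed, at −0.42 (SE 0.10, adjusted p = 0.0191 by edgeR), with Hells at −0.30, Dbf4 at −0.30, Top1 at −0.25 and Rnaseh2a at 0.51.

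**Figure D4:**
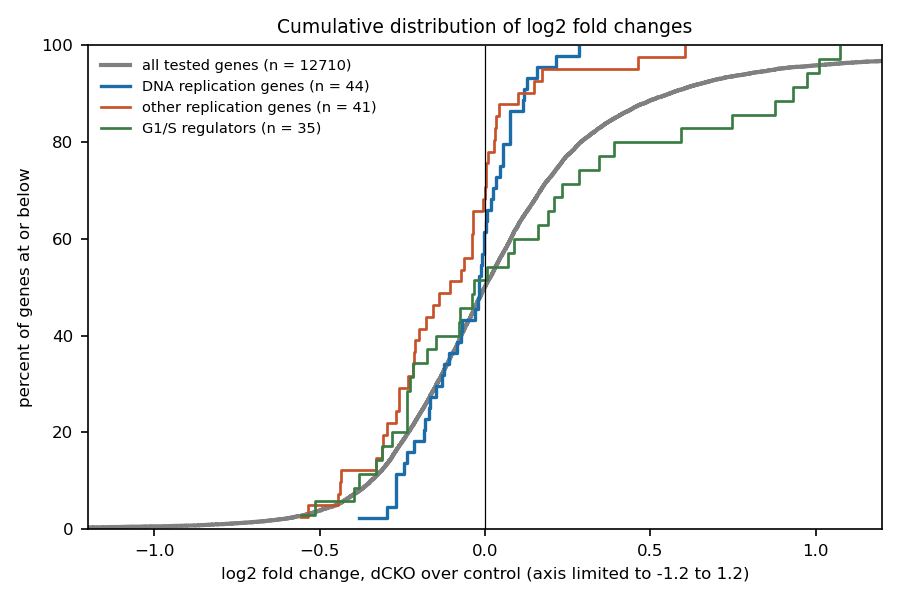
Cumulative percentage of genes by log2 fold change (dCKO over control) for the 44 DNA replication genes, 41 other replication genes, 35 G1/S regulators and 12710 tested genes. The members rise steeply between −0.38 and 0.28, while the G1/S regulators reach from −0.56 to 1.07.

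The regulators of entry into S phase, which act upstream of the members, were read from a list of 37 genes, of which 35 were tested. Of these, 5 were higher and 1 lower in dCKO, or 17.1%, beside 6.42% of all tested genes (5% higher and 1.42% lower), and the median log2 fold change was −0.033. E2f2, a transcription factor that activates many of the members, rose from 30.5, 31.4 and 30.4 CPM in control to 61.4 and 56.0 CPM in dCKO, a log2 fold change of 0.93 (SE 0.14, adjusted p = 1.14e-04 by edgeR). Ccnd3, a D-type cyclin, rose from 142, 167 and 193 CPM to 306 and 308 CPM, a log2 fold change of 0.88 (SE 0.13, adjusted p = 1.27e-04 by edgeR). Both dCKO libraries lay far above every control in these 2 genes, and both passed in each of the 15 alternatives, with values of at least 0.69 and 0.67.

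Cdkn1a, which encodes the cyclin-dependent kinase inhibitor p21, rose from 16.0, 14.5 and 18.3 CPM to 27.0 and 27.6 CPM, a log2 fold change of 0.75 (SE 0.18, adjusted p = 0.0127 by edgeR). The pocket protein genes Rb1 and Rbl2, whose products hold E2F factors back, rose by 0.97 and 1.01 on the log2 scale (edgeR adjusted p = 0.0382 and 0.0107) from low levels, 6.57, 10.7 and 6.87 to 11.3 and 20.2 CPM for Rb1 and 6.57, 6.22 and 6.26 to 12.8 and 12.9 CPM for Rbl2. In Rb1 dCKO replicate 1 stood just above control replicate 2. Ccne2, a cyclin of the G1/S step, fell from 49.0, 49.4 and 39.9 CPM to 30.1 and 32.5 CPM, a log2 fold change of −0.56 (SE 0.15, adjusted p = 0.0310 by edgeR). Outside the threshold stood E2f1 at 0.39, E2f5 at −0.40 and Myc at 0.34 (edgeR adjusted p = 0.0882, 0.0911 and 0.0936).

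Calls for Ccne2 and Cdkn1a were lost without any 1 library other than control replicate 3 (edgeR adjusted p up to 0.273 and 0.0930). The call for Rb1 was lost in the absence of control replicate 1, control replicate 3 or dCKO replicate 2 (up to 0.496) and with unscaled library totals (0.0557), and that for Rbl2 without either dCKO library (up to 0.0949). With the GC trend removed Ccne2 stood at −0.28 (adjusted p = 0.239 by edgeR) and no longer passed, and it did not pass with the replicate block added (0.229), while the other 5 genes passed with the trend removed. In the same dCKO libraries red cell markers summed to 56260 and 80580 CPM against at most 4463 CPM in a control. Against 5% of all tested genes, higher markers numbered 5 of 9 tested for myeloid cells and platelets. These were Pf4, Itga2b, Gp9, Ppbp and Laptm5, while Spi1, Csf1r, Lyz2 and Cd68 did not pass. Higher markers numbered 3 of 10 for epithelium, 1 of 8 for endothelium (Cldn5) and 1 of 8 for muscle precursors and neural cells (Sox10). Jaw mesenchyme had the 1 higher and 3 lower of 11. The part of these cell types in the G1/S genes was not tested.

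**Figure D5:**
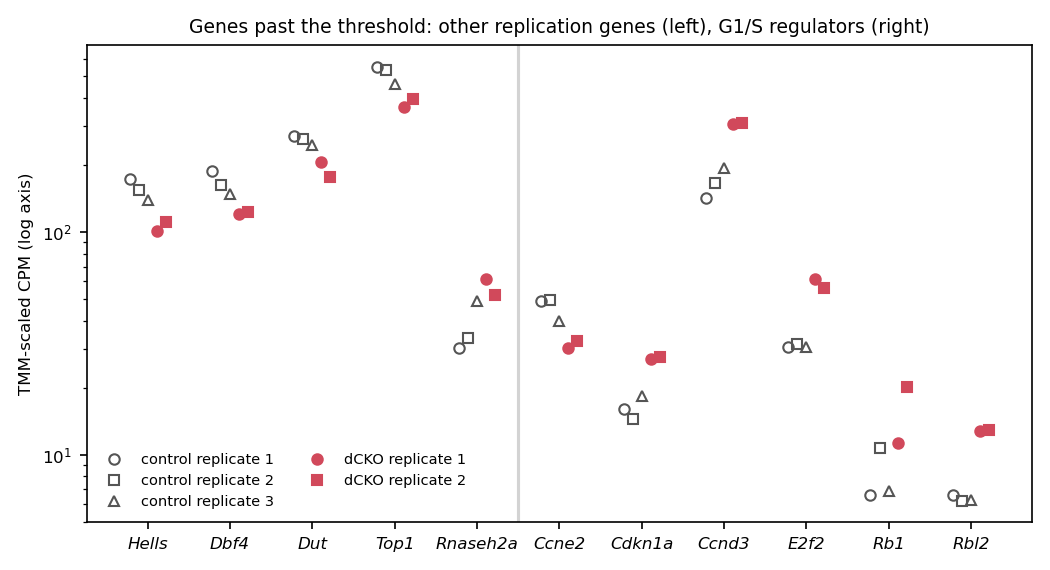
TMM-scaled CPM (log axis) in each library for the 5 other replication genes and 6 G1/S regulators past the threshold, with open grey signs for controls and filled red signs for dCKO. Hells, Dbf4, Dut, Top1 and Ccne2 lie below every control in dCKO, and the other 6 genes above.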

How the data were processed

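The authors deposited raw read counts per gene symbol for 5 libraries of Ion Total RNA-Seq v2 made from poly(A) RNA, per the labels' protocols, and a table of their own comparison. Per the file headers, that deposited table holds a signal (means of normalized counts), the fold change as a ratio, its log2 value, and p-values. Per the submitters' processing notes the build was mm9, with HTSeq 0.5.4p3 and DESeq 1.16.0 among the tools. Aligner, annotation and strand setting were not given in the sources used here. Members that overlap another gene may therefore share reads with it. Count columns headed WT were matched to the control titles by replicate number. The members, lists and tests were chosen with earlier results of these data known.

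Counts were fitted with R 4.3.3 and edgeR 4.0.16 (filterByExpr with a minimum count of 10 and total of 15, TMM, quasi-likelihood F test, two-sided, Benjamini-Hochberg over 12710 genes, threshold 0.05), tested first on simulated data. Standard errors are the log2 fold change over the root of F, and 95% intervals use the test's degrees of freedom. GC content and length are of the longest protein-coding transcript (GENCODE M21, GRCm38), found for 99.3% of tested genes and all 44 members. Per-library values are given for the 2 members of smallest p and the 2 of highest CPM in each of 5 role groups and for Cdt1, Gmnn and Pcna, and in both other lists for called genes, with 3 more of smallest p by their fold change. Mcm3, Mcm4, Mcm6 and Mcm7 and other members given by their fold change were named after their values were seen. Alternatives used limma 3.58.1 and DESeq2 1.42.0. Libraries of 1 group differed by more than counting noise (4.43 to 14.1 chi-square units per gene) and were kept apart.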

Additional observations from a re-analysis of the deposited data

How the results depend on the processing

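Over 15 alternatives, 0 of the 44 members were called in 11. With library totals and no scaling factor 1 member was called (Rfc3), with the replicate block 4 (Mcm2, Pold1, Rfc1, Rfc3), and with the GC trend removed and the replicate block 1 (Rfc3). In that order, these settings called 7.87%, 16.7% and 9.15% of all tested genes, against 2.27%, 9.09% and 2.27% of the members. Leaving out single libraries gave 0 to 3 called members, 442 to 1637 called genes in all, 0 to 8 other replication genes and 2 to 9 G1/S regulators, against 0, 816, 5 and 6 with all libraries. The replicate block gave 2121 called genes, 12 other replication genes and 13 G1/S regulators, and removal of the GC trend left 1 other replication gene. The members' median log2 fold change was −0.095 with no scaling factor, −0.059 with the replicate block, and −0.090 to 0.0070 with single libraries left out. Without scaling, 53.1% of called genes were higher, against 77.9% with TMM. The replicate numbers share only a number: deviations of same-numbered libraries correlated at 0.079 and −0.0050. No dCKO library shares the number of control replicate 3, so under the block that library adds nothing to the group difference. The block is thus close to the fit without control replicate 3, where the members' median was −0.067, and is not independent of it. What else enlarged the counts under the block was not tested. The lowest count of a member in a library was 193. With a dCKO library left out, the lone sample is assumed to vary like the controls.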
